A study of Mus musculus with 20 samples.

Results

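The 10 mouse genes described here encode the proteins that read or erase N6-methyladenosine (m6A), a methyl mark that is abundant inside messenger RNA: the readers Ythdc1, Ythdc2, Ythdf1, Ythdf2, Ythdf3, Igf2bp1, Igf2bp2 and Igf2bp3, and the erasers Fto and Alkbh5. Their own transcripts carry m6A peaks. A peak was counted for a gene when its summit lay in the gene body on the same strand, and 557 of the 437949 deposited peaks met this rule. Merged over the libraries where they overlapped, they formed 87 regions of 87498 in all, and 14601 genes in the annotation held a summit in at least 1 library.

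The series profiled m6A by immunoprecipitation (IP) of fragmented, ribosomal RNA-depleted RNA from the chromatin-associated fraction of C57BL/6 mouse embryonic stem cells, a fraction rich in nascent and retained nuclear transcripts. The cells were grown in DMEM with 15% FBS, LIF at 1000 U per ml, the GSK3 inhibitor CHIR99021 at 3 µM and the MEK inhibitor PD0325901 at 1 µM. The Mettl3 series holds a control, and the knockouts KO1 and KO2 of Mettl3, the catalytic subunit of the main m6A methyltransferase. The Ythdc1 series holds a control and a conditional knockout (cKO) of Ythdc1, whose deleted exons, Cre line and induction are not stated in the labels. Each of the 5 groups has 2 IP libraries, r1 and r2, with a peak list each. The matching 10 input libraries were not analysed here. Whether r1 and r2 came from separate cultures is not stated, so p-values cover only the spread among these libraries, and whether KO1 and KO2 are separate clones is not stated either.

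As background, m6A is placed in the nucleus while RNA is being made, by a complex built around METTL3 and METTL14. YTHDC1 is the nuclear reader of the YTH domain family and is known for roles in splicing, export and the fate of chromatin-associated RNA. YTHDF1, YTHDF2 and YTHDF3 are close paralogs that bind m6A in the cytoplasm and are known for promoting decay of the bound RNA, YTHDC2 is a helicase known for its role in meiosis, IGF2BP proteins are KH domain proteins that stabilise bound mRNA, and FTO and ALKBH5 are dioxygenases that remove the methyl group. m6A is found most often in the core sequence GGAC, within long internal exons and near stop codons.

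Some exonic summits that recurred in 8 or more libraries are shown as RNA-sense sequence from the GENCODE M21 transcripts on mm10, 5′ to 3′, because they show where the core motif sits beside the summit of the enrichment. A window is centred on a median, so single libraries can have their summit outside it. Each line holds up to 50 nt on either side of the median summit of a region, limited to coding sequence within 1 exon, and capitals mark GGAC, the only motif searched, on the sense strand.
Ythdf1 exon 5, chr2:180911472-180911572 (- strand): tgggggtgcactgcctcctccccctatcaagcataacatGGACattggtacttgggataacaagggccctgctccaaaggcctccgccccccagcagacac
Ythdf2 exon 4, chr4:132204355-132204455 (- strand): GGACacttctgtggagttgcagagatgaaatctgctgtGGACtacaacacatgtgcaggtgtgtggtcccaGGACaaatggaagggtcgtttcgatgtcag
Fto exon 3, chr8:91409605-91409705 (+ strand): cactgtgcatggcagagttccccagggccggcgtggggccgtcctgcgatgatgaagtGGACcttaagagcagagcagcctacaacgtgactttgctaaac
Alkbh5 exon 1, chr11:60538539-60538639 (+ strand): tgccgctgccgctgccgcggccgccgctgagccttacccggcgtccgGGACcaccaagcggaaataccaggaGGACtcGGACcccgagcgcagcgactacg
Alkbh5 exon 4, chr11:60554248-60554348 (+ strand): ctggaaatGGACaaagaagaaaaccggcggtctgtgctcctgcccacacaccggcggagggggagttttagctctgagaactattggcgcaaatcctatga
Igf2bp1 exon 15, chr11:95963503-95963563 (- strand): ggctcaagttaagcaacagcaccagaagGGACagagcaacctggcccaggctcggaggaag
Igf2bp3 exon 15, chr6:49087345-49087411 (- strand): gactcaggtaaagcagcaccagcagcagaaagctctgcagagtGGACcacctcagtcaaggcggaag
Ythdc1 exon 4, chr5:86817020-86817120 (+ strand): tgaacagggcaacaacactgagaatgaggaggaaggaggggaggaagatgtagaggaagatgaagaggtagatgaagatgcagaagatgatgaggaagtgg
Ythdc1 exon 17, chr5:86835705-86835805 (+ strand): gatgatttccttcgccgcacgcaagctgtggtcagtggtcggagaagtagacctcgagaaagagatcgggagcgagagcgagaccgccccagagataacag
In the long coding exon shared by the YTHDF paralogs (1521 bp in Ythdf1, 1584 bp in Ythdf2 and 1599 bp in Ythdf3), GGAC occurred beside the summit in Ythdf1, with its A 9 nt away, and 3 times in Ythdf2, nearest 10 nt away. The eraser genes held the motif 10 nt from the summit in Fto exon 3 and 1 nt from it in Alkbh5 exon 1. Ythdc1 exons 4 and 17, and exon 3, whose window is not shown, held no GGAC, which says only that those letters are not there. Over single libraries, 38.1% to 60% of 15 to 22 exonic member summits had a GGAC within 50 nt, beside 48.4% to 51.4% of the exonic summits of all genes, so the member genes lay around the general share.

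The knocked-out genes were looked at before the comparisons. Mettl3 held 1 peak in each control of its series, 0 and 0 for KO1, 1 and 1 for KO2, 3 and 2 for the Ythdc1 controls, and 1 and 0 for the cKO. Ythdc1 held 7 peaks in each of its own controls and 7 and 6 for the cKO. An m6A peak measures neither transcript level nor the deletion, so these counts do not check the genotypes. Peak lists held 40959 to 46735 peaks. Per library, the median number of reads at a member summit, solved from the authors' fold and p-value, was 146.5 to 190, and where a library has no peak, none was called at its depth. Of 10 embryonic stem cell markers, 9 carried a peak in every library, and Utf1 had none in KO1 or KO2. Their summed peaks per library were 26 to 31 for the Mettl3 controls, 33 to 34 for KO1, 27 to 30 for KO2, 33 to 34 for the Ythdc1 controls and 27 to 28 for the cKO, higher and lower in the same groups as the member peaks except that KO2 overlapped the controls. Fibroblast markers differed between the Mettl3 groups: 5 of 8 had a peak in both controls (5 to 7 peaks summed per library), against 1 of 8 in both libraries of KO1 and of KO2 (1 to 3 summed), with Col3a1, Postn and Thy1 at 0 throughout. In the Ythdc1 series 1 of 8 had a peak in both libraries of each group, with 1 to 2 peaks summed in the controls and 4 to 5 for the cKO. Of 5 primitive endoderm markers, Gata4 and Pdgfra had a peak in both cKO libraries, and the summed number was 0 to 2 over all libraries. Of 4 neural and mesoderm markers, 2 had a peak in every library. The part of these differences in the results below was not tested. In bulk RNA, fewer cells of a type and less RNA per cell cannot be told apart, and without the inputs a change in transcript amount and a change in m6A cannot be told apart either.

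Of the 557 member peaks, 359 lay in introns, 119 in coding exons, 41 in 5′ UTRs and 38 in 3′ UTRs. Of the 87 regions, 31 had a member peak in all 10 libraries (16 exonic and 15 intronic) and 16 were seen in 1 library. Counting any peak of the region, 32 of 87 (36.8%) were in all 10 libraries, against a background of 22.1% of genic regions. The difference of 1 is a region at the 5′ end of Igf2bp3, where all 10 libraries had a summit 53 to 160 bp upstream of the annotated start. Of 57 intronic regions, 13 reached an exon of their gene and 44 did not. For the regions in all 10 libraries the median spread of summits was 60 bp. In 14 of 31 they lay within 50 bp and in 17 they did not, and in 6 they spread over more than 500 bp, among them region 12 of Igf2bp3 (3561 bp), region 2 of Alkbh5 (801 bp), region 2 of Ythdf1 (667 bp) and region 6 of Ythdc1 (626 bp).

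**Figure D1:**
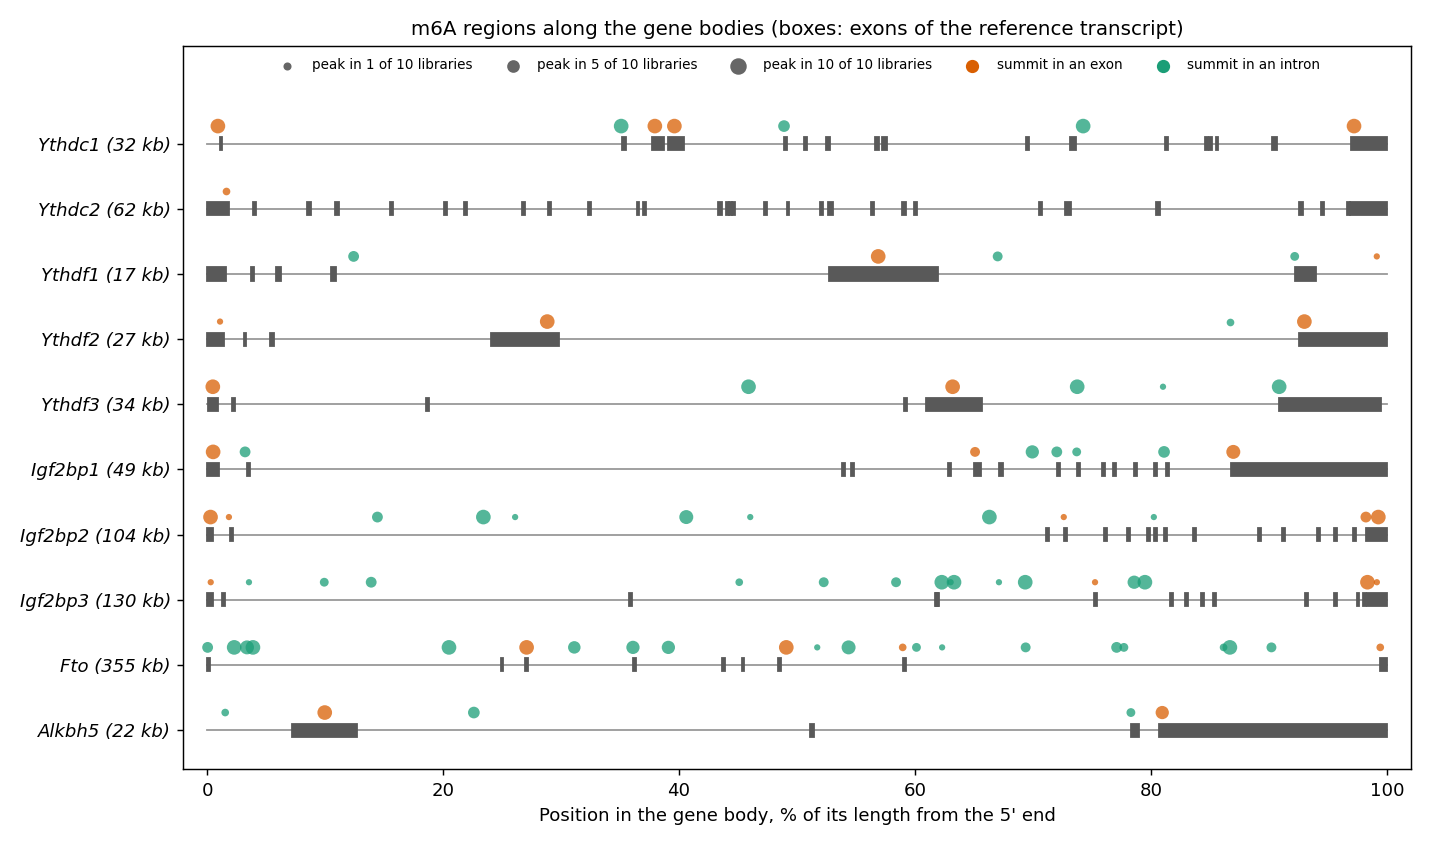
Position of the 87 m6A regions along the 10 gene bodies, in % of gene length from the 5′ end; boxes are exons of the reference transcript, and the point size gives the number of libraries (of 10) with a member peak. Exonic points gather at long internal exons and at gene ends, and intronic points are most frequent in Fto and Igf2bp3.

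The genes differed widely in how many peaks they carried. The mean over the 10 libraries was 13.3 peaks in Fto and 10.6 in Igf2bp3, the highest of the 10 genes, and 0.2 in Ythdc2, the lowest, beside a median of 1.5 for all genes with a peak. Fto and Igf2bp3 are also long (355 and 130 kb). Per 100 kb of gene body the order turned: 20.7 peaks in Ythdc1, 16.0 in Ythdf3, 15.8 in Alkbh5, 13.9 in Ythdf1, 10.3 in Igf2bp1, 8.4 in Ythdf2, 8.17 in Igf2bp3, 6.14 in Igf2bp2, 3.75 in Fto and 0.323 in Ythdc2. Near the last coding base, 7 genes had a region with a median summit within 150 nt: Ythdc1 (at 150 nt itself), Ythdf2, Igf2bp1, Igf2bp2, Igf2bp3, Fto and Alkbh5. These regions were in all 10 libraries in Ythdc1, Ythdf2 and Igf2bp3, and in 9 in Igf2bp1. They were in 8 libraries in Alkbh5, 5 in Igf2bp2 and 2 in Fto. The share over all genes was not counted.

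In the nuclear reader gene Ythdc1, 6 of 7 regions were present in all 10 libraries. In the following, regions are numbered from the 5′ end of each gene, and the fold enrichment at the summit is the authors' own value for a peak. It has no common scale between libraries and is set side by side as a description. At region 4, in coding exon 4 (chr5:86816802-86817221), the fold was 3.41 and 3.50 for the Mettl3 controls, 3.17 and 3.18 for KO1, 2.52 and 2.56 for KO2, 3.32 and 3.62 for the Ythdc1 controls, and 2.90 and 3.34 for the cKO. The controls were above KO1 and KO2, with KO2 lowest, and the cKO overlapped its controls. This summit held many reads, 721 and 710 for the Mettl3 controls, 717 and 712 for KO1, 748 and 743 for KO2, 664 and 683 for the Ythdc1 controls, and 618 and 637 for the cKO. At region 7, in the last exon and 150 nt before the last coding base, the fold was 5.84 and 4.72, then 5.11 and 5.02 for KO1, 3.85 and 4.07 for KO2, 4.01 and 4.58 for the Ythdc1 controls, and 4.66 and 5.01 for the cKO. Here the cKO values lay just above their controls, with fewer reads at the summit (384 and 354, against 487 and 490). Regions 2 and 6, intronic regions beside exons, were also higher in the cKO than in its controls: 7.38 and 7.72 against 5.11 and 6.10 at region 2, and 8.60 and 9.03 against 7.07 and 7.48 at region 6. In the Mettl3 series region 6 overlapped, at 6.43 and 9.48 for the controls, 7.23 and 6.71 for KO1, and 7.75 and 6.05 for KO2. Regions 1 to 4 overlap the predicted gene Gm43055 on the same strand, to which their reads could also belong.

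Region 5 of Ythdc1 (chr5:86819945-86820108), with its median summit in an intron 2 nt from the edge of a coding exon and single summits on either side of that edge, was the exception. It was called in KO1 at 2.59 and 2.59, in KO2 at 3.47 and 3.06 and in the Ythdc1 controls at 3.04 and 3.36, and in neither Mettl3 control nor cKO library. These are among the weaker peaks of their lists, with 127 to 197 reads. Of all genic regions 0.19% had this pattern over the 10 libraries, and 1 of 87 member regions did. The pattern is that of the region itself, so these shares are a description and lend it no support.

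Each YTHDF paralog carried a strong region in its long coding exon in all 10 libraries, with a median summit 859 nt before the last coding base in Ythdf1, 858 nt in Ythdf3 and 294 nt in Ythdf2. The highest summits of the Ythdf2 region lay within 7 bp of each other. In Ythdf1 they spread over 667 bp, and those of KO1 r2, Ythdc1 control r2 and both cKO libraries lay 523 to 569 nt downstream of the median. In Ythdf3 they spread over 359 bp, with both Ythdc1 controls apart from the other 8 libraries. In Ythdf1, the fold was 8.51 and 7.68 for the Mettl3 controls, 7.43 and 4.77 for KO1, 5.83 and 6.98 for KO2, 6.95 and 4.30 for the Ythdc1 controls, and 6.31 and 6.65 for the cKO. In Ythdf2, it was 8.76 and 9.58, then 6.31 and 6.53 for KO1, 6.96 and 8.08 for KO2, 7.49 and 7.15 for the Ythdc1 controls, and 9.70 and 9.84 for the cKO. In Ythdf3, it was 11.93 and 9.22, then 10.09 and 8.55 for KO1, 9.32 and 7.81 for KO2, 9.85 and 9.99 for the Ythdc1 controls, and 7.86 and 9.07 for the cKO. So Ythdf1 and Ythdf2 had lower values in all 4 Mettl3 knockout libraries than in both controls, Ythdf3 overlapped its controls, and in the Ythdc1 series Ythdf2 was higher and Ythdf3 lower in the cKO. The 3 summits held 337 to 647 reads. Ythdf2 had a further region in all 10 libraries in its 3′ UTR, 99 nt after the last coding base, whose fold ran from 3.71 to 12.11. The r1 and r2 libraries of KO2, at 12.11 and 3.71, were the highest and the lowest there. Ythdf3 had 5 of 6 regions in all 10 libraries, 3 of them intronic. Its 5′ UTR region was higher in the Ythdc1 controls (8.95 and 10.93) than in the cKO (6.34 and 6.58) and than in the Mettl3 series (4.31 to 5.80).

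Ythdf1 also had weaker regions. An intronic region after the long exon (region 3, chr2:180909712-180909973) was called in all 4 Mettl3 knockout libraries, at 3.25, 4.09, 3.11 and 2.85, and in no other library. Another intronic region, beside the last exon (region 4), was called in KO2 r2 (3.70) and in both Ythdc1 controls (3.37 and 5.41) and in no cKO library. The other paralogs had weak intronic regions called in some Mettl3 knockout libraries, and in no other library. These were region 3 of Ythdf2 (2.89 in KO1 r2 and 3.04 in KO2 r1) and region 5 of Ythdf3 (2.18 in KO1 r2). Igf2bp3 and Fto had regions of this kind too, and others called only in a Mettl3 control library. The knockouts have 4 libraries and the controls 2, and the share of such calls over all genes was not counted. The total number of Ythdf1 peaks was 1 and 2 for the Mettl3 controls, 3 and 3 for KO1, 4 and 4 for KO2, 2 and 2 for the Ythdc1 controls, and 1 and 1 for the cKO. Ythdc2 stood apart from the rest of the family: its single region, in coding exon 1, was called in KO1 r2 (5.72-fold, 99 reads) and Ythdc1 control r1 (5.38-fold, 100 reads) and in no other library.

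**Figure D2:**
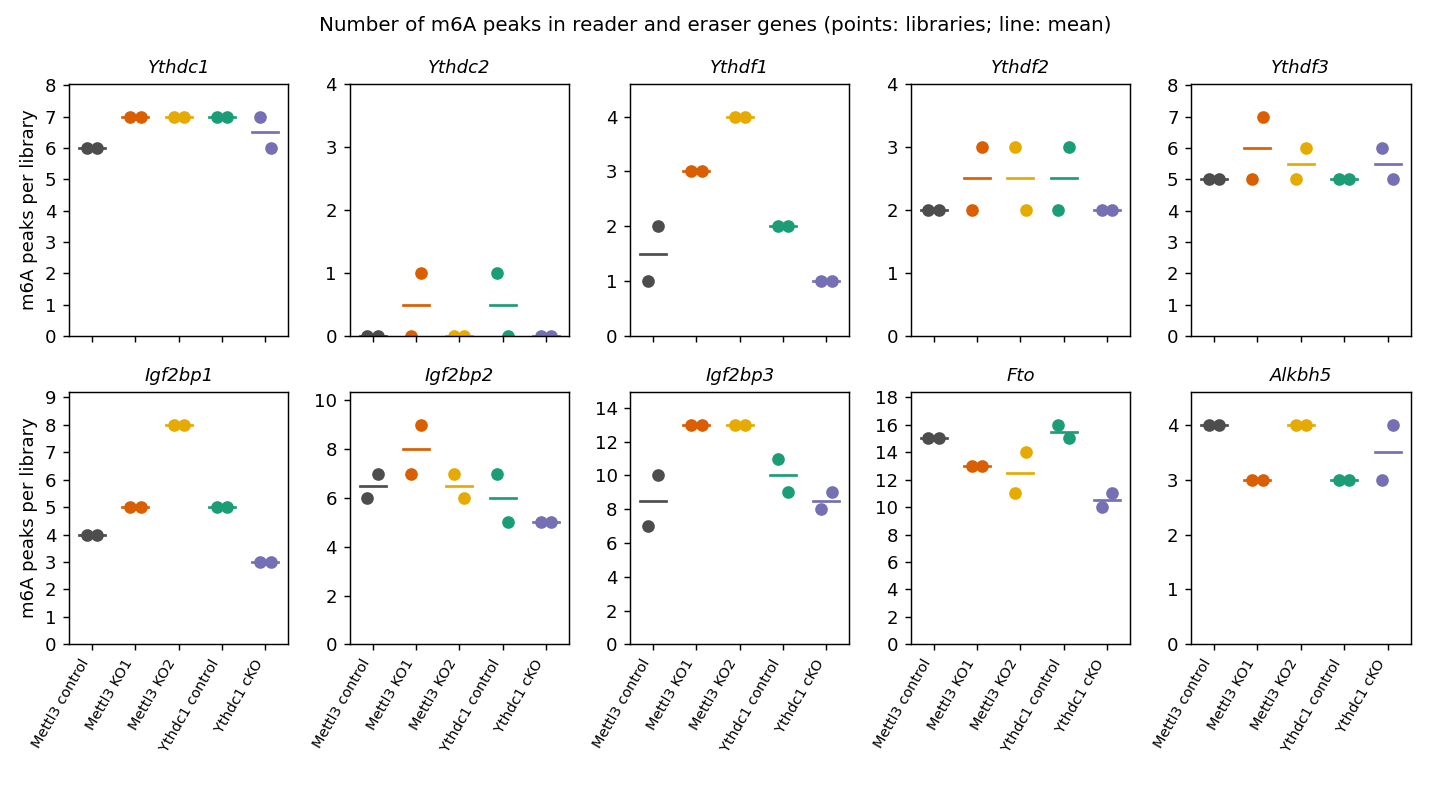
Number of m6A peaks per library in each of the 10 genes, with 2 libraries per group as points and their mean as a line. Ythdc1, Ythdf1, Igf2bp1 and Igf2bp3 sit higher in KO1 and KO2 than in the Mettl3 controls, Fto sits lower, and Fto, Igf2bp1 and Ythdf1 sit lower in the cKO than in the Ythdc1 controls.

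The IGF2BP genes carried their most widely recurring exonic regions at the ends of the transcript. The region at the stop codon was in 9 libraries in Igf2bp1 (1.44- to 2.76-fold, 10 nt before the last coding base; it overlaps the miRNA gene Mir3063), in all 10 in Igf2bp3 (1.71- to 3.65-fold, 16 nt before it), and in 5 in Igf2bp2 (1.67- to 5.14-fold, 69 nt before it). These are low folds, and several intronic regions of the same genes had higher ones. The highest of all member regions was Igf2bp2 region 8 in intron 2 (chr16:22093994-22094386), 5035 bp from the nearest exon. Its fold was 11.02 and 10.01 for the Mettl3 controls, 15.64 and 13.59 for KO1, 15.81 and 16.42 for KO2, 6.72 and 6.61 for the Ythdc1 controls, and 5.36 and 5.03 for the cKO. All 4 knockout libraries of the Mettl3 series were above their controls, both cKO libraries were below theirs, and the 2 control groups did not overlap each other. Within its own list this peak exceeded 93.1% and 92.1% of peaks for the Mettl3 controls, 99.1% and 98.3% for KO1, 98.9% and 98.9% for KO2, 77.3% and 74.2% for the Ythdc1 controls, and 61.0% and 56.1% for the cKO. It held 195 and 180 reads in the Mettl3 controls, 225 to 275 for KO1 and KO2, 119 and 104 for the Ythdc1 controls, and 150 and 160 for the cKO, so the cKO had more reads and a lower fold than its controls. The background reads solved with them were 16.9 and 14.9 for the Ythdc1 controls, and 27.2 and 31.0 for the cKO. In each of these controls that was the lowest of any member peak in the library. The lowest for the cKO were 18.6 and 17.9.

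Igf2bp3 had 17 regions, 13 of them intronic. The widest was region 12 in intron 5 (chr6:49122114-49126150), up to 4000 bp in a single peak. Its highest fold was 11.39 and 11.14 for the Mettl3 controls, 6.77 and 6.11 for KO1, 9.24 and 8.48 for KO2, 13.29 and 9.31 for the Ythdc1 controls, and 7.05 and 11.18 for the cKO. This fold was lower in both knockouts of Mettl3 than in the controls, and the cKO overlapped its controls. Summits spread over 3561 bp, so the highest fold can come from different places in different libraries. Merged over the Ythdc1 series alone, the region fell into parts. The part at chr6:49123039-49125230 was lower in the cKO (3.34 and 4.29) than in its controls (7.19 and 6.44). The part at chr6:49125390-49126142 was higher (4.01 and 3.50 against 3.17 and 3.46), and that at chr6:49122114-49122739 overlapped. Region 6 in intron 3 (chr6:49147063-49147445) was called in all Mettl3 knockout libraries and no other, at 5.78 and 5.49 for KO1 and 5.17 and 5.76 for KO2, with 83 to 127 reads. Igf2bp3 peaks numbered 7 and 10 for the Mettl3 controls, 13 in each of the 4 knockout libraries, 11 and 9 for the Ythdc1 controls, and 8 and 9 for the cKO.

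In Igf2bp1, 1 of 8 regions was present in all 10 libraries, region 1 in the 5′ UTR. The fold was 4.98 and 2.79 for the Mettl3 controls, 2.58 and 2.21 for KO1, and 2.77 and 2.81 for KO2. The Ythdc1 controls had 4.40 and 3.22, and the cKO 2.90 and 2.99. Region 2 of Igf2bp1, in intron 1, was called at 6.36 and 6.31 for the Ythdc1 controls, at 6.65 and 6.61 for KO2 and at 5.35 in KO1 r2. Region 5, in intron 7, was called in the same 5 libraries, at 4.98 and 3.98, 3.39 and 3.54, and 4.55. Neither was called in a Mettl3 control or cKO library. Region 4, also in intron 7 and 1031 bp from the nearest exon, was called in the 6 Mettl3-series libraries at 5.43 to 7.85 and in both cKO libraries (2.31 and 3.66), and in neither Ythdc1 control. Igf2bp1 peaks numbered 4 and 4 for the Mettl3 controls, 5 and 5 for KO1, 8 and 8 for KO2, 5 and 5 for the Ythdc1 controls, and 3 and 3 for the cKO.

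**Figure D3:**
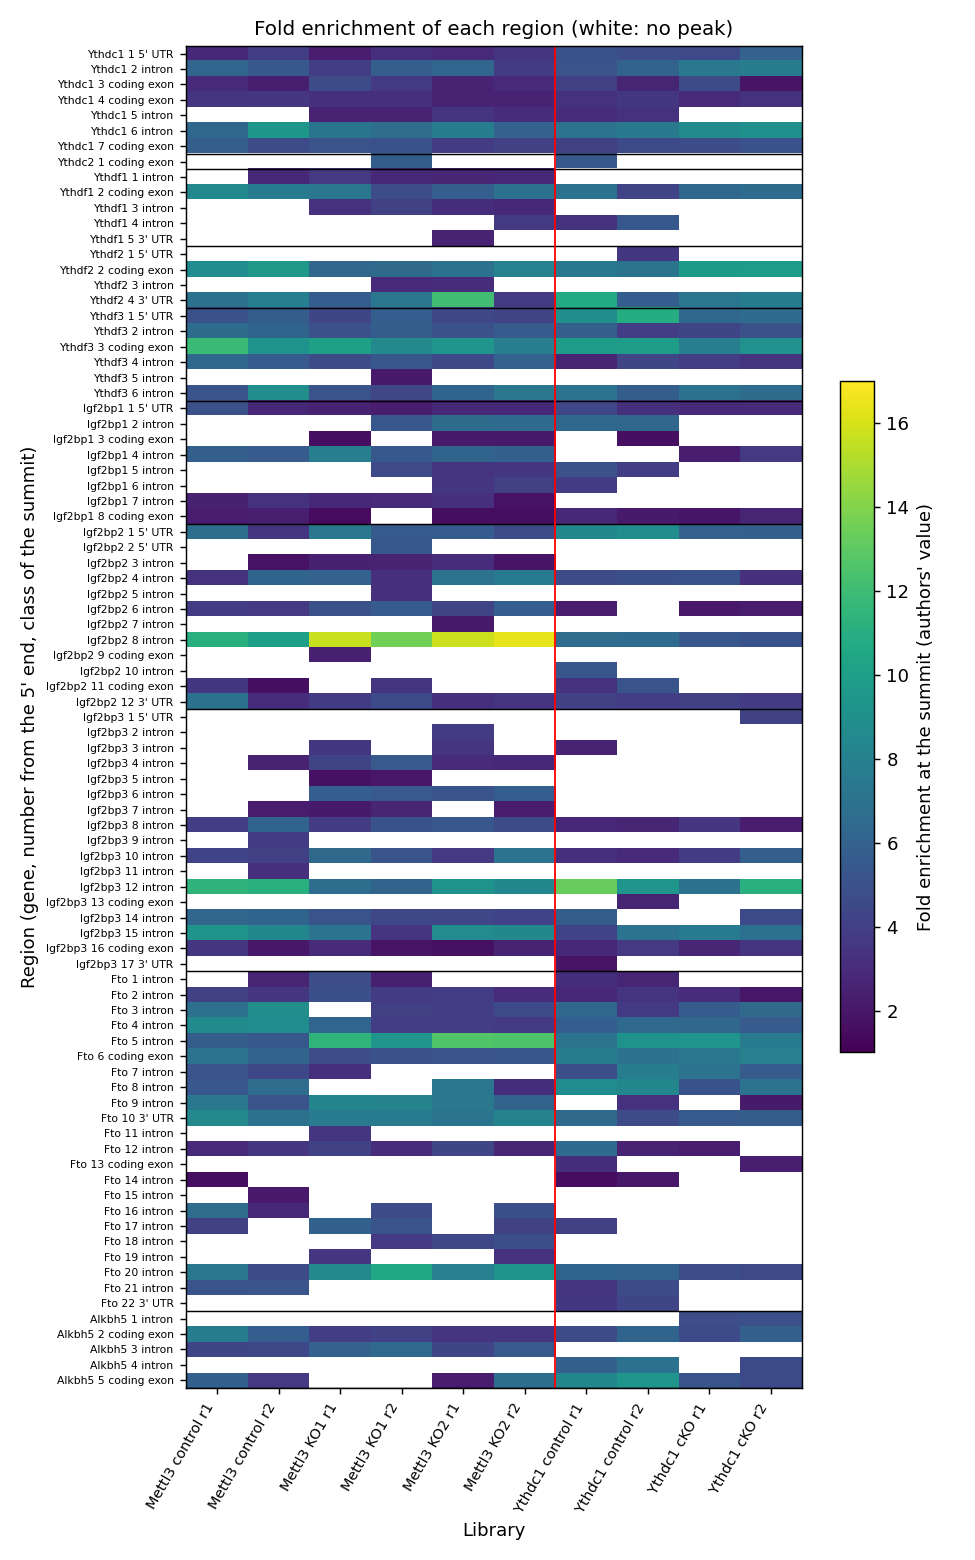
Fold enrichment at the summit (the authors' ratio, colour) of each of the 87 regions in each of the 10 libraries, with regions ordered by gene and from the 5′ end, white where no peak was called, and the red line between the Mettl3 and Ythdc1 series. Igf2bp2 region 8 holds the highest value, 16.42 in a KO2 library, with 5.03 in a cKO library, and Ythdc2 is almost empty.

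The eraser gene Fto had 22 regions, 18 of them intronic, and 6 were in all 10 libraries. Its coding exon 3, the longest coding exon (619 bp), carried region 6 (chr8:91409098-91409840), with a fold of 7.07 and 6.10 for the Mettl3 controls, 4.80 and 5.00 for KO1, 5.20 and 5.30 for KO2, 7.74 and 6.96 for the Ythdc1 controls, and 7.42 and 7.98 for the cKO. Reads at that summit were 569 and 608 for the Mettl3 controls, and 329 and 338 for KO1 and 438 and 409 for KO2. The Mettl3 knockouts were below the controls in fold and in reads, and the cKO overlapped its controls. Regions 4 and 5, both in intron 1, differed between the Mettl3 groups in opposite directions. Region 4 had 8.63 and 8.77 for the Mettl3 controls, 6.19 and 3.88 for KO1, and 3.91 and 3.71 for KO2. Region 5, downstream of it (chr8:91386176-91386454), had 5.75 and 5.43 for the Mettl3 controls, 11.46 and 9.36 for KO1, and 12.68 and 12.50 for KO2, with 106 and 103 reads in the controls, 197 and 191 for KO1, and 270 and 198 for KO2. In the Ythdc1 series both overlapped: 5.75 and 6.47 against 6.28 and 5.60 for the cKO at region 4, and 7.16 and 9.17 against 9.37 and 7.53 at region 5.

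Fto region 21 in intron 8 (chr8:91633577-91633979) was called in all 4 control libraries and in none of the 6 knockout libraries, at 5.18 and 5.22 for the Mettl3 controls and 3.52 and 4.73 for the Ythdc1 controls. It held 65 to 99 reads, lay 32575 bp from the nearest exon and overlaps the predicted gene Gm45293 on the same strand. Of genic regions 0.378% had this pattern, and 1 of 87 member regions did, which is a description and not a test. The 3′ UTR region 22, 8 nt after the last coding base, was called in the Ythdc1 controls (3.57 and 4.37) and in no other library. Fto peaks numbered 15 and 15 for the Mettl3 controls, 13 and 13 for KO1, 11 and 14 for KO2, 16 and 15 for the Ythdc1 controls, and 10 and 11 for the cKO.

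The other eraser gene, Alkbh5, carried its main regions in coding exon 1 and near its stop codon. In exon 1 (chr11:60537690-60539062 over the Mettl3 series) the fold was 4.82 and 4.56 in the controls, 3.91 and 4.10 for KO1, and 3.46 and 3.39 for KO2, all 4 below the controls. An intronic peak lay just after that exon (chr11:60539214-60539524). Its fold was 7.79 and 5.79 in the controls, 2.89 and 3.88 for KO1, and 2.98 and 2.35 for KO2, again below. Region 5 in coding exon 4, 114 nt before the last coding base, was called at 5.93 and 3.68 for the Mettl3 controls, in neither KO1 library, at 2.25 and 6.77 for KO2, at 8.37 and 9.35 for the Ythdc1 controls and at 5.14 and 4.58 for the cKO. The cKO was below its controls there, and KO2 spanned the Mettl3 controls.

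**Figure D4:**
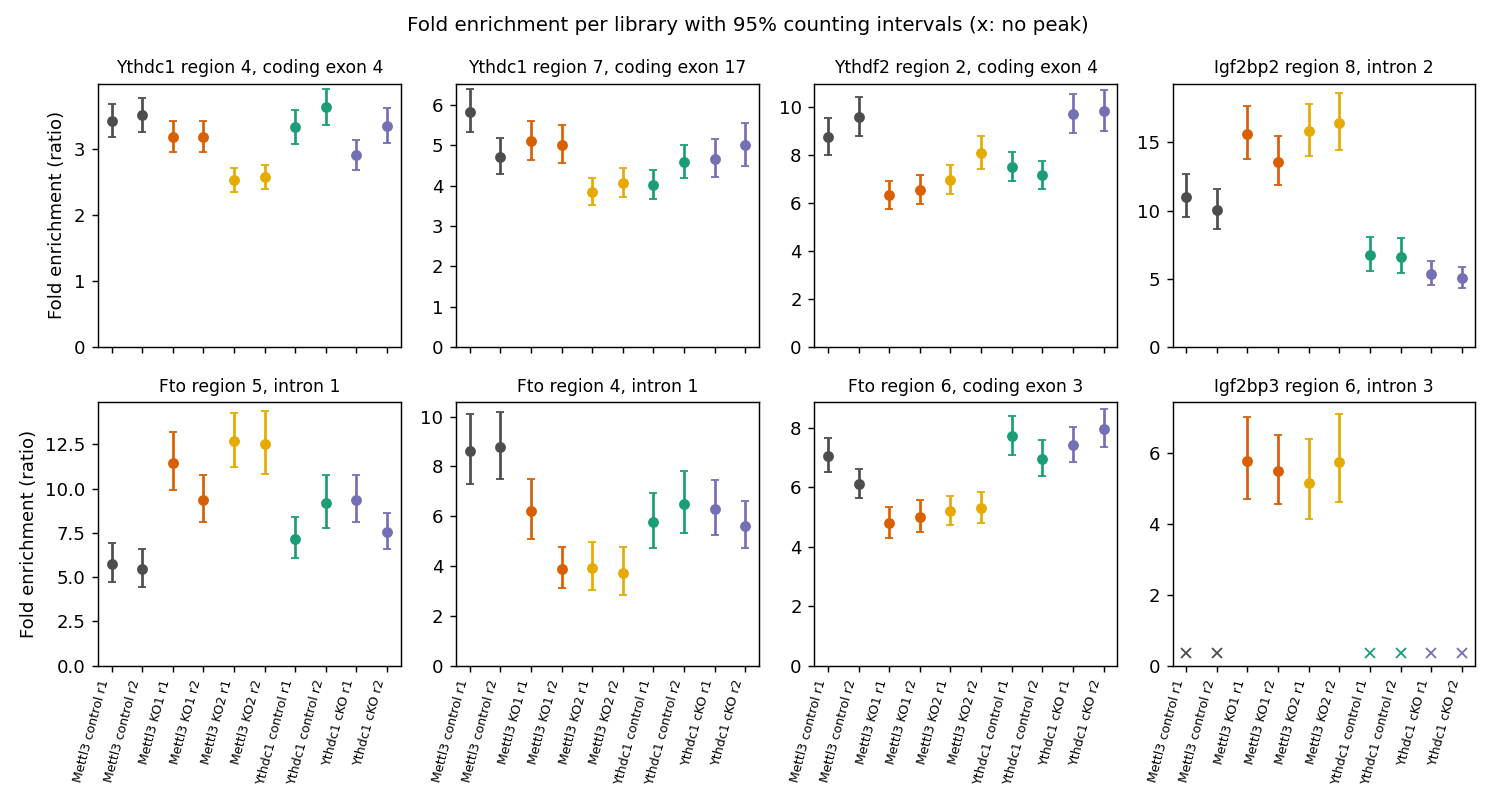
Fold enrichment (ratio, linear axis from 0) of 8 regions in the 10 libraries; bars are 95% exact Poisson intervals of the reads at the summit, which cover counting error only and treat the background as fixed, and crosses mark libraries with no peak. Fto region 5 and Igf2bp2 region 8 lie above the Mettl3 controls in KO1 and KO2, Fto regions 4 and 6 lie below, and Igf2bp3 region 6 has peaks in KO1 and KO2 only.

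The Mettl3 knockouts were set against their controls by the number, place and fold of called peaks. Without the inputs, this does not measure how far the peaks depend on the methyltransferase. Member peaks numbered 50 and 55 for the Mettl3 controls, 58 and 64 for KO1, and 62 and 64 for KO2, so no knockout library had fewer than a control. The mean was 52.5 ± 3.54 (SD, n = 2) in the controls and 62 ± 2.83 (SD, n = 4) in the knockouts, a difference of 9.5. By an exact two-sided permutation test p was 0.0667, the smallest that 2 against 4 libraries allow, and 0.133 after Benjamini-Hochberg adjustment over 4 tests. The difference was therefore not called at the threshold of 0.05. The values differed in introns, with 31 and 36 intronic peaks in the controls against 39, 44, 42 and 44 in the knockouts, and hardly in exons, with 19 and 19 exonic peaks against 19, 20, 20 and 20. Peaks in all genes numbered 33937 and 34889 in the controls, 34761 and 34911 for KO1, and 34232 and 33390 for KO2, which overlap. The intronic share was 63.7% against 68.1%, with the same exact permutation p of 0.0667 and 0.133 adjusted. Over all genic peaks that share was 51.0% and 51.2% in the controls, 59.0% and 58.9% for KO1, and 51.2% and 50.5% for KO2, so that in KO1 it was higher for all genes as well.

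By regions, 39 of 47 control regions in the Mettl3 series were kept, with a peak in every library (83.0%, background 64.8%). Only 1 was lost, Fto region 21 (background 8.96% of genic control regions). By class, 0 of 19 exonic and 1 of 28 intronic control regions were lost, beside 8.17% and 9.79% of all genes' regions. Of 45 regions with a peak in every knockout library, 3 were gained (6.67%, background 4.31%): region 5 of Ythdc1, region 3 of Ythdf1 and region 6 of Igf2bp3. Each knockout line was also set against the controls alone. In KO1, 3 of 47 control regions were lost (background 16.8%) and 4 of 49 knockout regions gained (background 12.9%). In KO2, 3 were lost (background 14.7%) and 8 of 54 gained (background 12.9%), 4 of these 8 in Igf2bp1. The losses in KO1 were Fto regions 8 and 21 and Alkbh5 region 5, and those in KO2 were Fto regions 7 and 21 and Igf2bp2 region 11. Over both lines, 4 regions were lost without Mettl3 control r1 and 2 without Mettl3 control r2, KO1 r1 or KO1 r2, and 6 were gained without Mettl3 control r2 or KO1 r1.

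By gene, Fto had fewer peaks in every Mettl3 knockout library than in both controls (1 of 10 genes, background 8.58%), and Ythdc1, Ythdf1, Igf2bp1 and Igf2bp3 had more (4 of 10, background 5.02%). Among genes with at least 2 peaks per library the shares were 1 of 9 (background 8.27%) and 4 of 9 (background 7.38%). Within the 39 kept regions, the fold was lower in all 4 knockout libraries than in both controls in 10 (background 22.7%) and higher in 4 (background 9.63%), shares near the background. The 10 were 2 of Alkbh5, 2 of Fto, 2 of Igf2bp3, and 1 each of Ythdc1, Ythdf1, Ythdf2 and Ythdf3. The 4 were all intronic, regions 6 and 8 of Igf2bp2 and regions 5 and 20 of Fto. On the log2 scale of the fold, the median difference of knockout minus control was -0.19 in the kept member regions (26 of 39 below 0) and -0.12 in all kept genic regions (60.9% below 0).

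The Ythdc1 cKO was set against its controls in the same way, which again does not measure dependence on the nuclear reader. Member peaks numbered 59 and 54 for the Ythdc1 controls and 45 and 46 for the cKO, without overlap. Peaks in all genes were lower in the cKO too, 35368 and 34084 in the controls and 30766 and 31135 in the cKO, so a lower number was not particular to the members, which made up 16.7 and 15.8 of every 10000 genic peaks in the controls and 14.6 and 14.8 in the cKO. The means were 56.5 ± 3.54 (SD, n = 2) and 45.5 ± 0.707 (SD, n = 2), a difference of -11, with an exact two-sided permutation p of 0.333, the smallest that 2 against 2 libraries allow, and 0.444 adjusted over the 4 tests. No call is possible at this size. The decrease was in introns (37 and 32 against 28 and 26) and in exons (22 and 22 against 17 and 20), and the intronic share was 61.0% against 59.4% (exact permutation p = 0.667, adjusted 0.667), so that the shares overlapped. Over all genic peaks the intronic share was 43.3% and 41.9% in the controls and 46.6% and 46.8% in the cKO. The difference in share, -1.61 percentage points, turned to 0.113 without Ythdc1 control r1 and to 1.24 without cKO r2.

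Of 49 control regions in the Ythdc1 series, 9 were lost (18.4%, background 18.0%) and 38 kept (77.6%, background 71.8%). Of 19 exonic regions 2 were lost (background 16.1%) and of 30 intronic regions 7 (background 21.1%), shares near those of all genes. The 9 lost regions were 4 in Fto (regions 1, 14, 21 and 22, at 1.56 to 4.73 in the controls), 2 in Igf2bp1 (regions 2 and 5), and 1 each in Ythdc1 (region 5), Ythdf1 (region 4) and Igf2bp2 (region 11, in the last exon, at 3.37 and 5.14). By gene these were 4 of 14 control regions of Fto, 2 of 4 of Igf2bp1 and 1 of 2 of Ythdf1. Without Ythdc1 control r2, 15 regions were lost. Of 41 cKO regions 2 were gained (4.88%, background 15.6%): region 1 of Alkbh5 at 4.80 and 4.93, called in no other library, and region 4 of Igf2bp1.

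By gene, Fto, Igf2bp1 and Ythdf1 had fewer peaks in both cKO libraries than in both controls (3 of 10, background 25.2%), and 0 of 10 had more (background 12.4%). With at least 2 peaks per library the counts were 2 of 8 (background 30.3%) and 0 of 8 (background 12.5%). In the 38 kept regions the fold was lower in both cKO libraries in 9 (background 33.1%) and higher in 6 (background 24.6%). Lower were the 5′ UTR regions of Igf2bp1, Igf2bp2 and Ythdf3, and the coding regions of Ythdf3 exon 5 and Alkbh5 exon 4. Intronic regions of Igf2bp2, Igf2bp3 (a part of region 12) and Fto were lower as well. Higher were 3 of the 6 kept regions of Ythdc1 (2, 6 and 7), the coding exon region of Ythdf2, and 2 intronic regions of Igf2bp3 (region 10 and another part of region 12). The median log2 difference of cKO minus control was -0.04 (21 of 38 below 0), beside -0.06 in all kept genic regions (55.3% below 0).

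The Mettl3 and Ythdc1 series were also set against each other, knockouts included. Of 39 member regions present in all 6 Mettl3-series libraries, 2 had no peak in any Ythdc1-series library (5.13%, background 5.96%). They were region 7 of Igf2bp1 and region 3 of Alkbh5. Of 37 present in all 4 Ythdc1-series libraries, 0 were without a peak in the Mettl3 series (background 2.95%). Both shares were near or below those of all genes, so the members did not stand out. Alkbh5 region 3, in the intron after exon 1, had 4.31 and 4.44 for the Mettl3 controls, 6.02 and 6.46 for KO1, and 4.32 and 5.47 for KO2. Why the series differ was not tested.

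The rest of the m6A pathway was counted as a list of 23 genes: 9 writer genes (the methyltransferase complex and Mettl16), 5 other RNA-binding proteins tied to m6A, and 9 partners of readers in decay, splicing, export and silencing. In the Mettl3 series 5 of 67 control regions of the list were lost and 46 kept, and 1 of 49 knockout regions was gained, which is 7.46%, 68.7% and 2.04%, beside 8.96%, 64.8% and 4.31% of all genic regions. The list as a whole thus lay near the general shares, but its parts differed. Of 29 writer control regions 3.45% were lost and 82.8% kept. Of 13 in the other RNA-binding proteins 0% were lost and 69.2% kept, and of 25 in the reader partners 16% were lost and 52% kept. These are few regions, and the difference between the parts was not tested. The lost regions lay in Setdb1 (3′ UTR, 4.63 and 5.04), a histone H3K9 methyltransferase, in Wtap (intron, 4.20 and 4.37), a regulatory subunit of the writer complex, in Cnot1 (intron), the scaffold of the CCR4-NOT deadenylase, and in Upf1 (2 regions), a helicase of nonsense-mediated decay. The gained region was intronic in Virma, another writer subunit, at 2.82 to 7.85. In the Ythdc1 series 12 of 71 were lost (16.9%, beside 18.0% of all genic regions), 54 kept (76.1%, beside 71.8%) and 2 of 59 gained (3.39%, beside 15.6%). Of 36 writer control regions 6 were lost (16.7%), in Mettl3, Mettl14, Wtap, Virma and Zc3h13, a share near that of all genes. The gained regions were in Fmr1 (coding exon, 7.56 and 9.27), the fragile X RNA-binding protein, and in Prrc2a (2.22 and 2.47).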

How the data were processed

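The 10 deposited peak lists of m6A immunoprecipitations were analysed, 1 per library, from chromatin-associated RNA made into stranded libraries, per the labels' protocols. The tools MACS2, HISAT2 2.1.0, Trimmomatic 0.38 and CASAVA and the build mm10 are named, without their roles, in the submitters' processing notes. The version and command line of MACS2 and its use of inputs are not given in the sources used here. Peak by peak, the authors deposited a display score, a fold enrichment at the summit (a ratio), the −log10 p-value and −log10 q-value, and other fields such as the summit offset. By the values, peaks were at least 150 bp with a −log10 q of at least 2.

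The members and the gene lists were chosen with earlier results of these data known, so no list was tested as a set, and all 10 genes are named. A peak was assigned by its summit to the same-strand gene body of GENCODE M21 (GRCm38, 55450 genes), as 3′ UTR, coding exon, 5′ UTR or intron of that gene, in that order. Regions named are those lost, those gained and, per gene, the one in all 10 libraries with the highest control fold, not always with the value of every library. Further regions were chosen after their values were seen. Peaks of a comparison that shared at least 1 bp on a strand were merged into regions. A region was lost with a peak in both controls and no knockout library, kept with a peak in every library, and gained with a peak in every knockout library and neither control. Background shares are those of all genic regions or genes. Reads at a summit were solved from the fold and p-value under a Poisson background, and 557 of 557 member peaks gave a whole number within 0.002 on the −log10 scale. This number has no molecular identifiers behind it, so its intervals cover counting error only. Numbers and intron shares were compared by exact permutation tests over libraries, without pairing, since the labels do not say that r1 and r2 mark a shared batch. The code was tested on simulated data. Python 3.11.15, numpy 2.4.6, pandas 2.3.3 and scipy 1.17.1 were used. Alternatives were a −log10 q of at least 5, any overlap with the gene, the 40000 strongest peaks per library, peaks per 10000, an overlap of 50%, each knockout line alone, each library left out, the replicate block and, chosen after seeing the data, regions merged over all 10 libraries. Intronic sequence was not analysed here. The sequence of 1 coding region is not reported here.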

Additional observations from a re-analysis of the deposited data

How the results depend on the processing

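Of 108 alternative values, 95 kept the direction and, for counts, stayed within 1.5 times the reported value; 11 counts moved by more and 2 differences reversed. The 1 member region lost in the Mettl3 series became 2 with an overlap of 50%, 3 with KO1 alone and 3 with KO2 alone, and 1 to 4 with each library left out: 4 without Mettl3 control r1, and 2 without Mettl3 control r2, KO1 r1 or KO1 r2. The 3 gained became 8 with KO2 alone and 3 to 6 with each library left out, 6 without Mettl3 control r2 or KO1 r1. The 9 lost in the Ythdc1 series became 10 to 15 with each library left out, 15 without Ythdc1 control r2. The difference in intron share in the Ythdc1 series, -1.61 percentage points, ran from -4.46 to 1.24 with each library left out and reversed to 0.113 without Ythdc1 control r1 and to 1.24 without cKO r2. The cause was not tested beyond the fewer libraries or the other definition of a region in each. With the replicate numbers as a block, the exact permutation p was 0.111 for both Mettl3 differences and 0.5 for both Ythdc1 differences, the smallest that the block allows (0.111 and 0.5), so it changed no call. With 2 libraries per group no comparison here can pass the threshold after adjustment, depth limits what can be called absent, and the fold of a peak carries no common scale between libraries.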
